A study of Mus musculus with 2 samples.

Results

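Genes that fold, translocate and degrade proteins in the endoplasmic reticulum (ER) were compared between marginal zone and follicular B cells of the mouse spleen. The list named 48 genes, chosen by symbol with earlier results of these data known. Of these, 44 had a measured value, among 7695 measured genes in all. Marginal zone B cells lie beside the marginal sinus and answer blood-borne antigen early, whereas follicular B cells recirculate and form the bulk of mature splenic B cells. There were 2 single-channel Affymetrix arrays. One held marginal zone B cells, sorted as intermediate for CD23 and high for CD21, and the other follicular B cells, sorted as high for CD23 and intermediate for CD21. Both came from wild-type female C57BL/6 mice, with no treatment named and no age given. Spleen cells of 3 mice were enriched for B220, and sorted cells were pooled before lysis, so each array averages over animals. Whether the same mice gave both populations is not stated.

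Proteins bound for the cell surface or for secretion enter the ER while they are being made. The signal recognition particle brings the ribosome to the Sec61 channel, signal peptidase removes the leader, and oligosaccharyltransferase attaches the first sugar tree. Chaperones and disulfide isomerases then fold the chain, and chains that fail are drawn back to the cytosol and destroyed, which is ER-associated degradation (ERAD). Sensors in the ER membrane, among them IRE1 (Ern1) and ATF6, raise the output of these genes when folding falls behind. Antibody-secreting plasma cells have a large ER, and marginal zone B cells become plasma cells quickly once stimulated. The comparison asked whether resting marginal zone and follicular B cells differ in this machinery.

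Every value below is a scaled signal of 1 probe set, the brightest of its gene, and each population has 1 array. There is therefore neither a replicate error nor a test, and no p-value is given. Precision is limited by this number of arrays. A difference is called past the threshold when the signals differ by at least 2-fold. Ratios are marginal zone over follicular on the log2 scale, so a positive ratio means a higher signal in marginal zone cells. Signals under a floor of 12.7, the median of both arrays, were raised to it. Different probe sets of 1 gene differed with an SD of 0.43 on the log2 scale (2622 genes), and this spread on the same arrays is the only repeat measurement. It does not cover mice, sorts or labellings. In sorted bulk samples, fewer cells of a type and less RNA per cell cannot be told apart.

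The ER genes had small differences, leaning towards marginal zone cells. Of the 44 genes, 28 were brighter in marginal zone cells and 16 in follicular cells. The share higher in marginal zone cells was 63.6%, beside 47.8% of all measured genes. Their median log2 ratio was 0.14, beside -0.03 over all measured genes. One gene, Pdia4, passed 2-fold towards marginal zone cells, as did 4.39% of all genes, and 0 passed it towards follicular cells, as did 4.86% of all genes. In either direction 9.25% of all genes passed it. Pdia4 counted as measured only through the marginal zone array, so the filter set its direction. The other 43 ER genes lay within 2-fold.

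The spread of the ER genes was narrower than that of all genes. Their interquartile range was -0.16 to 0.34 on the log2 scale, against -0.38 to 0.32 over all measured genes. At a threshold of 1.5-fold, 4 ER genes were higher in marginal zone cells (9.09%, beside 13.6% of all genes) and 1 in follicular cells (2.27%, beside 15.8%). Both directions together gave 5 ER genes (11.4%), beside 29.4% of all genes. The 4 were Pdia4, Sel1l, Edem1 and Ssr4, and the 1 was Creld2. Of the 44 genes, 34 (77.3%) differed by less than the SD between probe sets of 1 gene, as did 58.5% of all genes. Among genes whose mean log2 signal over both arrays reached that of 45.7, the 75th percentile of all signals, 3 of 38 ER genes (7.89%) were past 1.5-fold in either direction, as were 27.4% of all 3527 such genes.

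**Figure D1:**
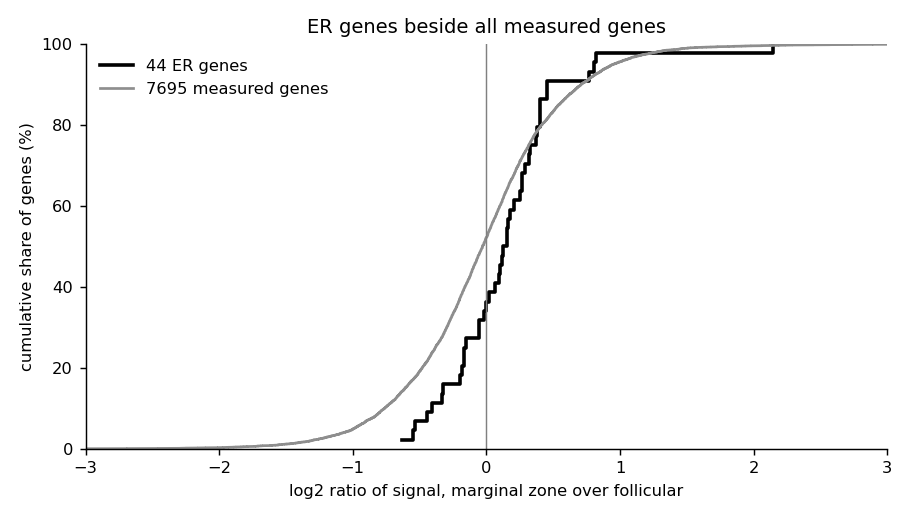
Cumulative share of genes (y axis, percent) by log2 ratio of signal, marginal zone over follicular (x axis), for the 44 ER genes (black) and all 7695 measured genes (grey). The black line lies to the right of the grey one over most of its length and climbs more steeply, with medians of 0.14 and -0.03; its last step is Pdia4 at 2.14, a lower bound.

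Of the 48 listed genes, 4 had no value. Sec61g and Srp54a were reached only by probe sets annotated to several genes, which were not used, and Hspa13 and Mzb1 matched no probe set. Ero1l and Ero1lb are listed in RefSeq as Ero1a and Ero1b and were found under those symbols. None of the genes with a probe set of its own fell below the floor on both arrays, so the 44 are all genes with a usable probe set.

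The translocon leaned to marginal zone cells. Its 8 measured genes had a median log2 ratio of 0.29, and 7 of them were higher in marginal zone cells, though 0 reached 2-fold. With the mean of all measured probe sets of each gene the median was 0.24, and by the second brightest probe set, which 5 of these genes have, it was 0.14. Sec61a1, which forms the channel, had a signal of 999.5 in marginal zone cells, against 830.1 in follicular cells. Sec61b, a small subunit of the channel, was at 302.4 in marginal zone cells, against 228.9 in follicular cells, a 1.32-fold difference. Both channel subunits were thus brighter in marginal zone cells, by less than the SD between probe sets. Of the 5 measured probe sets of Sec61a1, 4 gave ratios from 0.14 to 0.46, and the dimmest gave -0.61.

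The Ssr genes encode the TRAP complex, which sits beside the channel and helps some leaders open it. Ssr4 had the largest difference of the translocon, at 155.2 in marginal zone cells, against 89.0 in follicular cells, or 1.74-fold. Its other probe sets gave log2 ratios of 0.73 and 0.17, so the size depended on the probe set while the sign did not. Ssr2 was at 68.5 in marginal zone cells, against 50.02 in follicular cells. Ssr3 was at 275.0 in marginal zone cells, against 220.2 in follicular cells. Ssr1, the alpha subunit, was nearly equal, at 329.8 in marginal zone cells and 325.6 in follicular cells. The subunits of 1 complex therefore ran from a ratio of 0.02 to 0.80.

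Sec62 and Sec63 assist the channel, mainly for proteins that enter after they are made. Sec62 was at 410.1 in marginal zone cells and 414.2 in follicular cells, a log2 ratio of -0.01. Sec63 was at 48.7 in marginal zone cells and 45.7 in follicular cells. Both differed by far less than the SD between probe sets, and the 4 probe sets of Sec63 went both ways, from -0.31 to 0.53.

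The signal recognition particle was close to equal. Srp9, of the part of the particle that pauses the ribosome, was at 319.4 in marginal zone cells and 306.0 in follicular cells. Srp14, its partner, was at 449.9 in marginal zone cells and 413.6 in follicular cells. All 4 probe sets of Srp14 were higher in marginal zone cells, from 0.12 to 0.43, whereas the other probe set of Srp9 gave -0.15.

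Signal peptidase went the other way, with all 3 measured genes lower in marginal zone cells and a median log2 ratio of -0.34, although Spcs2 came to 0.00069 when the arrays were scaled to equal medians. Spcs3 was at 88.3 in marginal zone cells, against 129.3 in follicular cells, 1.47-fold higher in follicular cells. Spcs1 was at 238.6 in marginal zone cells, against 301.1 in follicular cells. Spcs2 was at 148.0 in marginal zone cells and 153.4 in follicular cells. All 5 measured probe sets of these genes had the lower signal in marginal zone cells, the second one of Spcs2 at -0.62. Over all measured probe sets of the array annotated to 1 gene, 47.8% were higher in marginal zone cells. The Spcs genes encode the non-catalytic subunits. The catalytic subunits, Sec11a and Sec11c, are not on the list and were looked at after the values of Spcs1 to Spcs3 were seen. Sec11a was at 243.5 in marginal zone cells and 198.2 in follicular cells, and Sec11c was at 402.6 in marginal zone cells and 335.5 in follicular cells. The brightest probe sets of these 5 subunits therefore did not share a direction, and each differed by less than 1.5-fold.

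Oligosaccharyltransferase was split, with 2 of its 4 genes higher in each population and a median log2 ratio of 0.20, although the sign of Ddost turned under 4 other scalings. Dad1, a small subunit, was at 426.1 in marginal zone cells, against 322.8 in follicular cells, and its other probe set gave a ratio of 0.56. Rpn2, a subunit of the complex, was at 49.3 in marginal zone cells, against 35.97 in follicular cells. Ddost was equal, at 122.9 in marginal zone cells and 123.5 in follicular cells. Rpn1, which passes selected chains to the enzyme, was at 434.2 in marginal zone cells and 482.4 in follicular cells. All 5 probe sets of Rpn1 were lower in marginal zone cells, from -0.97 to -0.09, so this gene had 1 direction throughout but no fixed size.

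**Figure D2:**
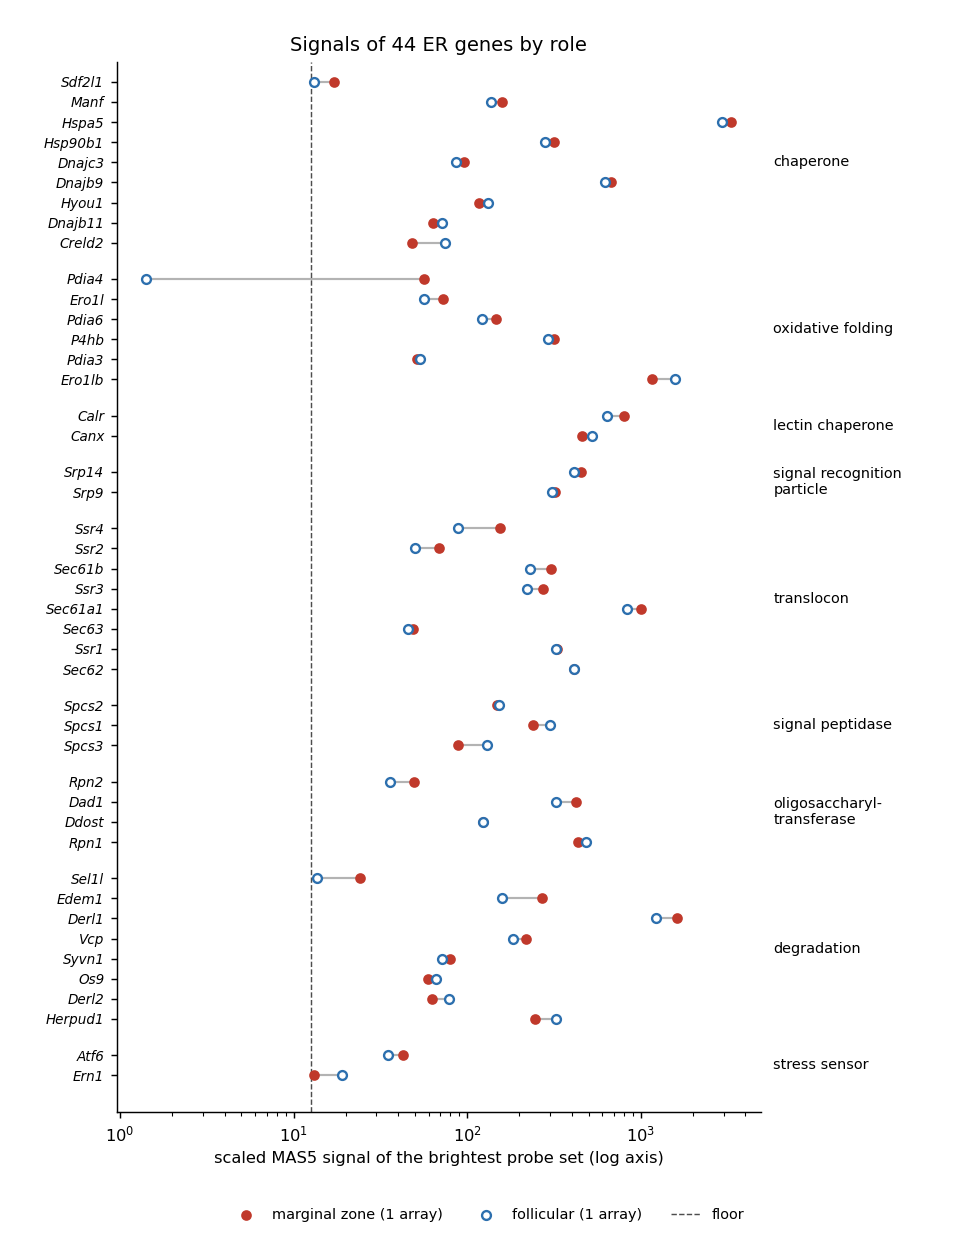
Scaled MAS5 signal of the brightest probe set (x axis, log scale) of each of the 44 ER genes, grouped by role; filled red points are the marginal zone array, open blue points the follicular array, and the dashed line is the floor at 12.7. Most pairs lie close together; Pdia4 is the one wide pair, and the 3 signal peptidase genes all have the marginal zone point on the left.

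Among the chaperones of the ER lumen, 6 of 9 measured genes were higher in marginal zone cells, with a median log2 ratio of 0.15. Hspa5, which encodes BiP, the main ER chaperone of the Hsp70 family, was at 3320.4 in marginal zone cells and 2938.1 in follicular cells, a log2 ratio of 0.18. Its second probe set, at 550.9 in marginal zone cells and 337.4 in follicular cells, gave 0.71. Hsp90b1, which encodes GRP94, the Hsp90 chaperone of the ER, was at 314.4 in marginal zone cells and 280.5 in follicular cells. These major chaperones were higher in marginal zone cells by every measured probe set. The brightest probe sets lay within the SD between probe sets. The second ones lay past it, at 0.71 for Hspa5 and 0.54 for Hsp90b1.

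The J-domain partners of BiP were nearly level by their brightest probe sets. Dnajb9 was at 673.0 in marginal zone cells and 619.5 in follicular cells. Dnajc3 was at 95.9 in marginal zone cells and 86.2 in follicular cells, and its other measured probe sets, at -0.31 and -0.52, went the other way. Dnajb11 was at 63.1 in marginal zone cells and 71.6 in follicular cells. The brightest probe sets of these 3 genes all differed by less than the SD between probe sets.

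Hyou1, which encodes a large Hsp70-like protein that exchanges nucleotide on BiP, depended on the probe set. Its brightest probe set was at 117.6 in marginal zone cells and 132.4 in follicular cells, a log2 ratio of -0.17. A dimmer one was at 28.7 in marginal zone cells and 8.3, under the floor, in follicular cells, a ratio of at least 1.18. These probe sets have opposite signs, so no direction can be given for Hyou1.

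The small stress-induced luminal proteins were mixed. Manf, which binds BiP, was at 158.2 in marginal zone cells and 137.3 in follicular cells. Sdf2l1, which acts with BiP and Dnajb11, was at 17.1 in marginal zone cells and 13.1 in follicular cells, both just over the floor. Creld2 was at 48.1 in marginal zone cells, against 74.6 in follicular cells, and was the ER gene most in favour of follicular cells, at 1.55-fold. It has 1 probe set, so there is no second reading on these arrays.

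Disulfide bonds are formed by the disulfide isomerases, which Ero1 oxidases recharge. Of 6 genes in this group, 4 were higher in marginal zone cells, with a median log2 ratio of 0.18. Pdia4, which encodes the isomerase ERp72, was at 56.0 in marginal zone cells and 1.4 in follicular cells, far under the floor, a difference of at least 4.42-fold. Its other probe set read 0.99 in marginal zone cells and 1.8 in follicular cells, under the floor on both arrays, so the difference rests on 1 probe set. That probe set was measured only through the marginal zone array, so its direction was set by the filter. With the floor at the 75th percentile of signals the log2 ratio of Pdia4 was 0.29, and with no floor it was 5.31.

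The rest of the isomerases were close to equal. P4hb, which encodes the founding disulfide isomerase, was at 314.7 in marginal zone cells and 293.1 in follicular cells. Pdia6 was at 146.0 in marginal zone cells and 121.7 in follicular cells. Pdia3, which works with calreticulin and calnexin on glycoproteins, was at 51.7 in marginal zone cells and 53.8 in follicular cells. These 3 isomerases differed by less than the SD between probe sets.

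The pair of Ero1 oxidases had opposite signs. Ero1l was at 72.5 in marginal zone cells, against 56.1 in follicular cells, and all 3 of its probe sets were higher in marginal zone cells, the others at 0.44 and, as a bound with the follicular signal under the floor, at least 0.20. Ero1lb was at 1158.6 in marginal zone cells, against 1578.2 in follicular cells, a log2 ratio of -0.45. The other readings of the gene were 0.91 and -0.83, of which -0.83 is a bound, so the sign of Ero1lb turned with the probe set.

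Calreticulin and calnexin hold glycoproteins while they fold. Calr was at 804.0 in marginal zone cells, against 641.1 in follicular cells. Canx was at 455.7 in marginal zone cells, against 523.5 in follicular cells. In both genes the dimmer probe sets turned the sign, at -0.23 and -0.19 for Calr and at 0.52 for Canx. No direction can be given for either.

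**Figure D3:**
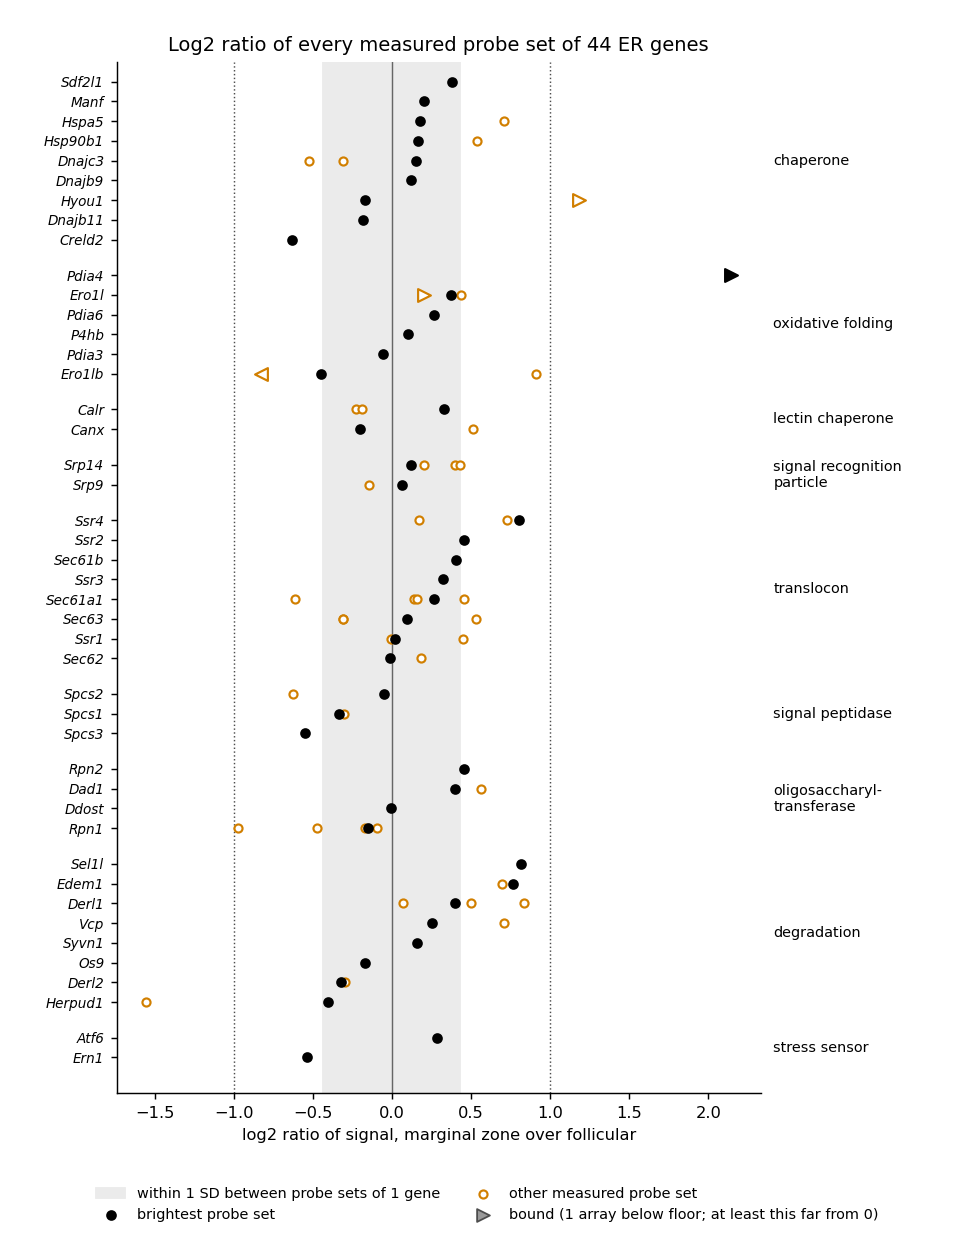
Log2 ratio of signal, marginal zone over follicular (x axis), for all 86 measured probe sets of the 44 ER genes, in rows by gene and role; black points are the brightest probe set of a gene, open orange points its other probe sets, triangles bounds (1 array below the floor, so the ratio is at least this far from 0), the grey band 1 SD between probe sets of a gene (0.43) on each side of 0, and dotted lines the 2-fold threshold. The 3 values outside the dotted lines belong to Pdia4, Hyou1 and Herpud1.

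The degradation genes went both ways. Of 8 genes, 5 were higher in marginal zone cells, with a median log2 ratio of 0.20 and 0 past 2-fold. Edem1, a lectin that marks misfolded glycoproteins for removal, was at 269.0 in marginal zone cells, against 158.3 in follicular cells, 1.70-fold higher. Its second probe set, at 114.6 in marginal zone cells and 70.6 in follicular cells, gave a ratio of 0.70, against 0.76 for the first. Both readings of Edem1 were past the SD between probe sets and nearly the same size.

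Sel1l, the scaffold of the HRD1 ubiquitin ligase, was at 24.1 in marginal zone cells, against 13.6 in follicular cells, 1.76-fold higher. Both signals were near the floor, and the other 3 probe sets of Sel1l were below it on both arrays. Syvn1, which encodes the ligase HRD1, was at 80.0 in marginal zone cells and 71.7 in follicular cells. Derl1, a channel-like protein of the membrane, was at 1618.6 in marginal zone cells, against 1228.6 in follicular cells, and all 4 of its probe sets were higher in marginal zone cells, from 0.07 to 0.84. Vcp, the ATPase that pulls chains out of the membrane, was at 217.5 in marginal zone cells and 182.8 in follicular cells, and its second probe set gave 0.71. Edem1, Sel1l, Syvn1, Derl1 and Vcp were thus all brighter in marginal zone cells, of which Syvn1, Derl1 and Vcp lay within the SD between probe sets by their brightest probe set.

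The remaining 3 degradation genes were lower in marginal zone cells. Herpud1, a stress-induced membrane protein that joins the HRD1 complex, was at 245.0 in marginal zone cells, against 324.4 in follicular cells. Its second probe set, at 25.1 in marginal zone cells, against 73.8 in follicular cells, was 2.93-fold higher in follicular cells, so both readings had 1 sign but sizes of -0.41 and -1.55. Derl2 was at 62.6 in marginal zone cells, against 78.2 in follicular cells, and its probe sets gave -0.32 and -0.29. Derl1 and Derl2 thus had opposite signs, each by all of its measured probe sets. Os9, a lectin that delivers glycoproteins to the ligase, was at 59.1 in marginal zone cells and 66.5 in follicular cells.

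The stress sensors on the list were Ern1 and Atf6. Ern1 was near the floor on both arrays, and Atf6 lay between the floor and the 75th percentile of signals, 45.7. Ern1, which encodes IRE1, was at 13.2 in marginal zone cells and 19.1 in follicular cells, and its other 2 probe sets were below the floor on both arrays. Atf6 was at 42.9 in marginal zone cells and 35.2 in follicular cells. Their ratios, -0.54 and 0.29, had opposite signs. Eif2ak3, which encodes the third sensor PERK and is not on the list, was at 478.0 in marginal zone cells, against 741.6 in follicular cells, 1.55-fold higher in follicular cells. The other probe sets of Eif2ak3 gave 0.08 and -0.64, of which -0.64 is a bound.

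Xbp1, whose transcript IRE1 splices to make a factor that drives ER growth, was at 659.0 in marginal zone cells, against 396.6 in follicular cells, 1.66-fold higher in marginal zone cells. Of its 4 probe sets, 3 gave ratios from 0.62 to 0.73, and the dimmest, at 18.4 in marginal zone cells and 36.4 in follicular cells, gave -0.98. Splicing of Xbp1 was not measured. The transcript of the sensor Ern1 and that of its substrate Xbp1 therefore had opposite signs by their brightest probe sets. The sign of Ern1 rests on 1 measured probe set near the floor.

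Some promoters of the ER genes hold a textbook element of the ER stress response. The list holds stress-induced genes, among them a textbook target of this element, Hspa5 (BiP). The shares of genes with a match are therefore not independent of the choice of genes. ATF6 and spliced XBP1 act with the factor NF-Y at the ER stress element (ERSE), which is CCAAT and CCACG with 9 bases between. Promoter windows were taken from RefSeq (GRCm38.p6), 250 bases before to 50 after each annotated start, and 39 of the 48 genes had one. An exact ERSE, searched on both strands, was present for 9 of these 39 genes (23.1%). Of all 27025 genes with a window, 37 (0.137%) had one. The matches are given in the direction in which the motif reads, with CCAAT and CCACG in capitals and up to 16 bases on each side, so that the shared parts and the free spacer can be compared.
Hspa5 (chr2:34772009-34772059, plus strand): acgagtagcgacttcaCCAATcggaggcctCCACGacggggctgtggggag
Calr (chr8:84847059-84847109, plus strand): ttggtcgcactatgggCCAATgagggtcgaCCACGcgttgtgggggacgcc
Canx (chr11:50325784-50325834, minus strand): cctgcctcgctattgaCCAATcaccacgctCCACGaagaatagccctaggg
Dnajc3 (chr14:118937811-118937861, plus strand): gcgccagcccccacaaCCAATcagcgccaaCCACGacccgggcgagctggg
Pdia6 (chr12:17266475-17266525, plus strand): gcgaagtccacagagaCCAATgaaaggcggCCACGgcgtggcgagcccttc
Syvn1 (chr19:6046516-6046566, plus strand): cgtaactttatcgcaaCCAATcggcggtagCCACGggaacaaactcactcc
Creld2 (chr15:88819504-88819554, minus strand): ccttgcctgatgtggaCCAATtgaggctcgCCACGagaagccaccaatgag
Ero1lb (chr13:12565666-12565716, minus strand): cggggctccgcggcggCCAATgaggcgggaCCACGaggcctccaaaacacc
Hsp90b1, nearer match (chr10:86705517-86705567, plus strand): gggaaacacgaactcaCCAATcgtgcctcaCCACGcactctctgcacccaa
Hsp90b1, farther match (chr10:86705622-86705672, minus strand): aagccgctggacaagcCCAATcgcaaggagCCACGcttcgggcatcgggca

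The matches began between 44 bases (Syvn1) and 212 bases (the farther match of Hsp90b1) before the start. The 250 bases before the start of Hspa5 (chr2:34771840-34772089, plus strand) are shown whole because BiP is the textbook target of this element, with its exact match in capitals.
Hspa5 promoter: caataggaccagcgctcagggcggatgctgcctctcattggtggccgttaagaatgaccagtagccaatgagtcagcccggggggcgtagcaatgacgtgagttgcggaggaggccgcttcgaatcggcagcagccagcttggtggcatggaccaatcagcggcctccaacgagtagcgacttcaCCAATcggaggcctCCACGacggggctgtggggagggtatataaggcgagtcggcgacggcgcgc

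A related element, ERSE-II, is ATTGG and CCACG with 1 base between, and shares CCACG with the ERSE; it was searched on both strands too. It was found for Herpud1 and, just past the start, for Dnajb11, 2 of 39 genes (5.13%), beside 0.0444% of all genes with a window. Herpud1 is stress-induced too, so this share is not independent of the choice of genes either. No ER gene held both elements. The match of Herpud1 is shown because its signals favoured follicular cells by both probe sets.
Herpud1 (chr8:94386361-94386403, plus strand): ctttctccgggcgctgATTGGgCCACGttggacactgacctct
The letters TGACGTG, the core of the XBP1 element, were found on either strand for Hspa5 and Vcp, 2 of 39 genes (5.13%), beside 2.22% of all genes with a window.

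All 9 genes with an exact ERSE had a measured value, and by the brightest probe set 6 were higher in marginal zone cells and 3 (Canx, Ero1lb and Creld2) in follicular cells. The signs of Calr, Canx, Dnajc3 and Ero1lb turned with the probe set. Of the others, Hspa5, Hsp90b1, Pdia6 and Syvn1 were higher in marginal zone cells, and Creld2 alone was lower. Pdia6, Syvn1 and Creld2 have 1 measured probe set each, so their sign could not turn in this way. The log2 ratios of the 9 genes ran from -0.63 for Creld2 to 0.33 for Calr, with a median of 0.16. The 28 measured genes whose windows held no exact ERSE had a median of 0.10, with 17 higher in marginal zone cells and 11 in follicular cells. They include Herpud1 and Dnajb11, which hold an ERSE-II and were both lower in marginal zone cells. With either element, 6 of 11 genes favoured marginal zone cells and 5 follicular cells (median 0.15). With neither, 17 of 26 favoured marginal zone cells and 9 follicular cells (median 0.11). The larger share thus lay with the ERSE genes in the first split, but with the genes lacking both elements in the second. Pdia4, the gene past 2-fold, had no exact match to either element in its window. A match is a string of letters and not a shown binding site.

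**Figure D4:**
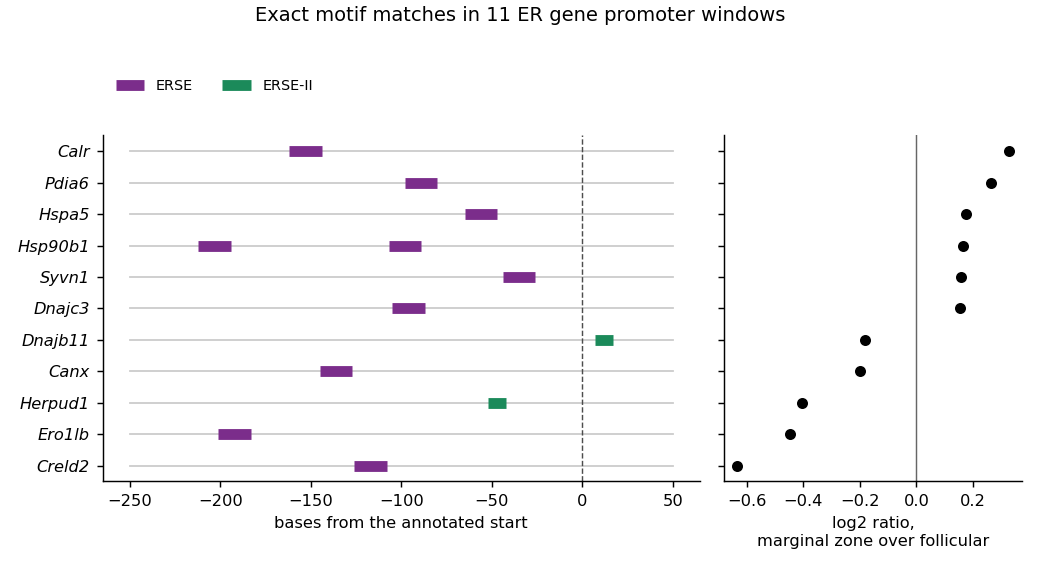
Left, position of each exact ERSE (purple) and ERSE-II (green) match in bases from the annotated start (x axis, dashed line at the start) in the windows of 11 ER genes; right, the log2 ratio of each gene's signal, marginal zone over follicular. Rows run from Calr at 0.33 to Creld2 at -0.63, and genes with matches lie on both sides of 0.

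A wider list of 68 further ER genes, not among the 48, gave less of a lean. Of 60 measured, 34 (56.7%, beside 47.8% of all genes) were higher in marginal zone cells, with a median log2 ratio of 0.06. The 2-fold threshold was passed by 2 genes towards marginal zone cells (3.33%, beside 4.39% of all genes) and by 2 towards follicular cells (3.33%, beside 4.86%). Sil1, a nucleotide exchange factor of BiP, was at 104.0 in marginal zone cells, against 37.9 in follicular cells, 2.75-fold higher. Derl3, the third derlin, was at 39.9 in marginal zone cells and 3.3, under the floor, in follicular cells, at least 3.15-fold higher. Derl3 counted as measured only through the marginal zone array, so the filter set its direction. Derl3 has an exact ERSE in its window, Derl2 has none in its window, and Derl1 has no window. Fkbp2, a prolyl isomerase of the ER, was at 11.7, under the floor, in marginal zone cells and 40.6 in follicular cells, at least 3.21-fold higher in follicular cells. Kdelr1, a receptor that returns escaped ER proteins, was at 11.3, under the floor, in marginal zone cells and 30.2 in follicular cells, at least 2.38-fold higher in follicular cells. Fkbp2 and Kdelr1 counted as measured only through the follicular array, so the filter set their direction as well. All 4 genes past 2-fold, Sil1, Derl3, Fkbp2 and Kdelr1, have 1 measured probe set.

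Markers of plasma cells, which are rich in ER transcripts, were set beside these values. Of the 10 listed, 7 were measured and 5 of them were higher in marginal zone cells. The summed signal was 1348.6 in marginal zone cells and 1094.9 in follicular cells, of which Xbp1 and Irf4 made up most. Xbp1, which is also on the wider ER list, was at 659.0 in marginal zone cells and 396.6 in follicular cells. The difference of the sums thus rests on Xbp1. Prdm1, which drives plasma cell formation, was at 30.9 in marginal zone cells, against 12.7, just over the floor, in follicular cells. It has 1 probe set. Sdc1, the plasma cell surface antigen, was at 4.4, under the floor, in marginal zone cells and 68.3 in follicular cells. Irf4 was equal, at 527.1 in marginal zone cells and 532.4 in follicular cells. Slamf7 was at 78.7 in marginal zone cells and 45.7 in follicular cells, and Jchain was at 28.0 in marginal zone cells and 20.2 in follicular cells. Tnfrsf17, which encodes BCMA, was below the floor on both arrays. The part of plasma cells in the lean of the ER genes was not tested.

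Other markers of the sort were as follows. Of 6 B cell genes, 5 were measured and 3 of them were lower in marginal zone cells, with a median log2 ratio of -0.38 and a summed signal of 5546.6 in marginal zone cells and 6215.3 in follicular cells. Cd79b and Cd79a, which encode the signalling chains of the B cell receptor, were 1.90-fold and 1.70-fold higher in follicular cells. Cd22, an inhibitory receptor, was at 1020.5 in marginal zone cells and 1323.4 in follicular cells, and its other probe set gave a log2 ratio of 0.17. Ms4a1, which encodes CD20, was at 1878.0 in marginal zone cells and 1754.0 in follicular cells. The gate genes followed the gate, Cr2 3.20-fold higher in marginal zone cells and Fcer2a 8.11-fold higher in follicular cells. Of 12 macrophage and monocyte genes, 7 were measured and all 7 were higher in marginal zone cells. Their summed signal was 181.1 in marginal zone cells and 73.0 in follicular cells. Cd5l, C1qb, Cd68 and Vcam1 were under the floor in follicular cells, so they counted as measured only through the marginal zone array. The direction of these genes was thus set by the filter. The brightest of the 7, Csf1r, was at 42.5 in marginal zone cells and 17.3 in follicular cells. C1qa, C1qc, Marco, Siglec1 and Mertk were below the floor on both arrays. Of 5 proliferation genes, 3 were measured and all 3 were higher in marginal zone cells. Their summed signal was 123.0 in marginal zone cells and 46.5 in follicular cells. Mki67 and Ccna2 were under the floor in follicular cells, so the filter set their direction as well. Top2a was at 41.4 in marginal zone cells and 27.9 in follicular cells. The summed signals of the T cell, neutrophil, erythroid and platelet genes were at most 31.1 on either array. The part of these markers in the ER values was not tested.

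The values were recomputed under 11 other ways of scaling, flooring or choosing probe sets, of which each gene had a value in 9 to 11. In the settings with a value, 23 of the 44 genes were always higher in marginal zone cells and 10 always lower. The choice of probe set could not change the 20 genes with 1 measured probe set. The remaining 11 turned in at least 1 setting: Hyou1, Dnajc3, Ero1lb, Calr, Canx, Srp9, Sec62, Sec63, Ssr1, Spcs2 and Ddost. Among the 24 genes with several measured probe sets, all probe sets agreed in sign for 14, 9 towards marginal zone and 5 towards follicular cells. Counted by probe set, 52 of 86 (60.5%) were higher in marginal zone cells, beside 47.8% of all measured probe sets annotated to 1 gene.

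**Figure D5:**
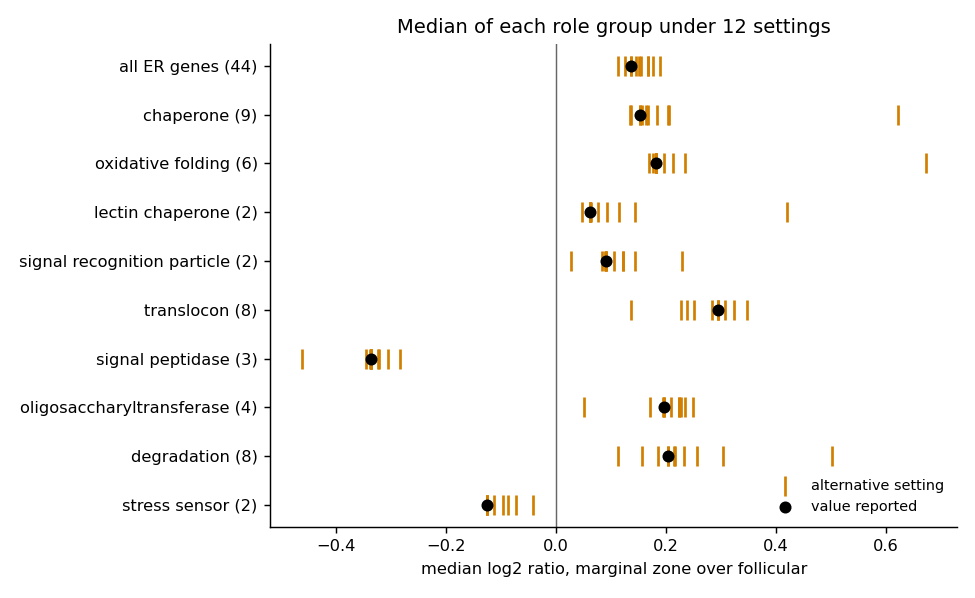
Median log2 ratio of signal, marginal zone over follicular (x axis), of all ER genes and of each role group, with the number of measured genes in brackets; black points are the values reported and orange ticks the same median under 11 alternative settings (fewer where a setting left no gene). Signal peptidase and the stress sensors lie below 0 and all other groups above 0 throughout.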

How the data were processed

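Sorted B cells were profiled on 1 array per population. Per the labels, about 100 ng of RNA was amplified in 2 cycles and biotin-labelled. The deposited values are linear intensities per probe set, made with MAS5 per the submitters' processing notes; its version, its scaling target and any detection calls were not stated. Deposited medians were 12.6 (marginal zone) and 12.8 (follicular), over 22626 probe sets. Each array was scaled to 1 common 2% trimmed mean, by 0.990 (marginal zone) and 1.01 (follicular). A probe set was measured if either signal exceeded the floor. Probe sets were named from the platform annotation: 20380 named 1 gene and were used, 691 named several, and 1555 were absent from it. A gene was represented by the measured probe set of highest mean log2 signal. No genome build is named for the arrays; promoter coordinates are those of RefSeq's GRCm38.p6 table.

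The 48 genes, their roles and the other lists were chosen with earlier results of these data known. All 48 were to be named, with the genes past 2-fold of the wider list, Xbp1, Eif2ak3, and the plasma cell genes past 2-fold with Prdm1, Xbp1, Irf4 and Jchain; Sec11a, Sec11c and the other genes printed were added after their values were seen. The ratio procedure was tested on simulated data, with changes past 2-fold in bright genes and noise smaller than the SD between probe sets. That test therefore does not cover differences as small as those of most ER genes. Python 3.11.15, numpy 2.4.6, pandas 2.3.3 and scipy 1.17.1 were used.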

Additional observations from a re-analysis of the deposited data

How the results depend on the processing

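The median of the 44 ER genes lay between 0.11 and 0.19 on the log2 scale under 11 alternatives, of which 10 were planned and the one without probe sets whose IDs end in _s_at or _x_at was chosen after seeing the data. Of 460 member values under these alternatives, 18 moved by more than the SD between probe sets of 1 gene. This share does not measure robustness. The scalings shifted ratios only slightly, and genes with 1 measured probe set could not change with the choice of probe set. With the second brightest probe set, those that moved this far were Hspa5, Hyou1, Dnajc3, Ero1lb, Calr, Canx, Ssr4, Spcs2, Herpud1 and Vcp. The call of Pdia4 ended with the floor at the 75th percentile, where 0 of 40 ER genes passed 2-fold towards marginal zone cells, beside 125 of all 3907. Without the _s_at and _x_at probe sets 2 of 44 passed it, beside 327 of 7323, the second being Hyou1. At a 1.5-fold threshold the counts were 4 in marginal zone cells (9.09%, beside 13.6% of all genes) and 1 in follicular cells (2.27%, beside 15.8%). By the second brightest probe set, which 24 genes have, 14 were higher in marginal zone cells, beside 48.4% of all 2622 genes that have one. Of the 24, 1 passed 2-fold towards marginal zone cells (Hyou1), beside 119 of 2622, and 1 towards follicular cells (Herpud1), beside 152. There the medians were 0.62 for chaperones, 0.67 for oxidative folding, 0.50 for degradation and 0.14 for the translocon, over 4, 2, 5 and 5 genes. The calreticulin and calnexin median was 0.42 without the _s_at and _x_at probe sets. For the wider list, 4 of 63 genes were past 2-fold towards marginal zone cells with the floor at the 25th percentile, beside 1277 of all 11035. With the floor at the 75th percentile it was 1 of 43, beside 125 of 3907. It was 3 of 60 with no floor, beside 782 of 7695. Without the _s_at and _x_at probe sets it was 3 of 60, beside 327 of 7323. At 1.5-fold it was 8 of 60, beside 13.6% of all genes, and at 3-fold it was 1. Towards follicular cells 0 of 43 genes of the wider list passed 2-fold with the floor at the 75th percentile, beside 143 of 3907. With 12.7 added as a pseudocount and no floor it was 1 of 60, beside 312 of 7695. By the second brightest probe set it was 0 of 26, beside 152 of 2622. Of these 26 genes, 14 were higher in marginal zone cells, as were 48.4% of the 2622. At 1.5-fold it was 8 of 60, beside 15.8% of all genes, and at 3-fold it was 1. Apart from the changed thresholds and the fewer genes of some settings, the cause was not tested. The median of all measured genes ran from -0.04 to 0.02 across scalings and floors. No paired analysis was possible because each population has 1 array.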
